A study of Homo sapiens with 20 samples.

Results

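The comparison covered 8 of the 20 RNA-seq libraries of the series: the 6 libraries titled Ni_clone_1 to Ni_clone_6 and the 2 libraries titled Ni_6W+2W, chosen by title. All were made from BEAS-2B, an established and immortalised line of human bronchial epithelial cells, and the labels name no genetic change in either group. Both groups had been cultured with nickel chloride for 6 weeks. For Ni_6W+2W, here called the washed population, the whole culture was then rinsed and kept for 2 weeks in medium without nickel, and the labels give the concentration only as a range of doses. For the clones, cells exposed for 6 weeks to NiCl2 at 100 mM, as the labels write the unit, were seeded sparsely without nickel, and separate colonies were picked and grown up. Each clone is the offspring of 1 colony and was sequenced once, so a clone and its library cannot be told apart. The time the clones spent without nickel is not given, and clones of unexposed cells were not analysed here. The labels do not say whether the 2 washed libraries came from separate cultures, so every p-value here reflects how far these libraries differ, and that difference may be technical. In bulk RNA, a smaller number of cells of one kind and less RNA in each cell cannot be told apart.

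A population that has been through a toxic exposure is a mixture of cells with different histories, and a clone samples 1 of them. Nickel is a carcinogen of the airway that stabilises hypoxia-inducible factors, inhibits iron-dependent dioxygenases that act on chromatin, and in BEAS-2B has been linked with the epithelial to mesenchymal transition (EMT) through the repressor ZEB1. Immediate early genes such as FOS and EGR1 encode short-lived transcription factors. They are switched on by growth factors, stretch, serum or stress through the kinase ERK and serum response factor, without new protein synthesis, and are then shut off by feedback inhibitors such as the DUSP phosphatases and Sprouty proteins.

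The 2 washed libraries held 33733301 and 23509793 reads over genes, and the clones 16524990 to 20009974. After 121 read-through loci (2 gene symbols joined by a hyphen, at most 0.187% of reads) were set aside, 14188 genes were tested, and levels are given as CPM, the reads of a gene scaled to a common library size after TMM normalisation. Markers of the bronchial epithelial label were only in part present: KRT8 stood at 378 to 840 CPM (scaling of all 20 libraries) in the washed libraries and 502 to 828 in the clones, and KRT18 at 207 to 390 and 264 to 379, while CDH1, TP63, FOXJ1, SCGB1A1 and MUC5B were under 1 CPM in all 8 libraries. The summed bronchial list was 656 to 1280 CPM in the washed libraries and 879 to 1250 in the clones. The summed list of 12 fibroblast markers was at 3240 to 5410 CPM in the washed libraries and 2930 to 7620 in the clones. CPM is not corrected for gene length, so the sums of the 2 lists are not ranked. Of the fibroblast markers, COL1A1 was at 2340 to 6830 CPM over the 8 libraries, THY1 at 357 to 643, PDGFRB at 111 to 222, COL1A2 at 0.279 to 97.7, TWIST1 at 17.8 to 35.8 and TWIST2 at 5.78 to 14.3. The other 6 (COL3A1, PDGFRA, DCN, LUM, FAP and PRRX1) were under 1 CPM in all 8. Of the 7 endothelial markers 6 were under 1 CPM in all 8 libraries, PECAM1 among them at 0, while TIE1 was at 0.118 and 0.338 CPM in the washed libraries and 0.46 to 6 in the clones. The leukocyte marker PTPRC was under 1 CPM in all 8 libraries, whereas CD14 was at 6.03 to 24 CPM and CD68 at 22.5 to 41.1.

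The washed libraries stood as far apart as clones did. The root mean square log2 difference over the genes tested was 0.684 between washed 1 and washed 2. Between 2 clones it ran from 0.437 (clones 2 and 3) to 0.812 (clones 1 and 5), and between a washed library and a clone from 0.486 (washed 1 and clone 5) to 0.795 (washed 1 and clone 1). Clone 5 was thus nearer to washed 1 than washed 2 was, and clone 1 was 0.673 or more from every other library of the comparison. Among the other 12 libraries, washed 2 was nearest to replicate 2 of the cells still in nickel at 6 weeks (Ni_6W), at 0.37, and washed 1 was nearest to replicate 2 of Ni_3D+14D, at 0.511. Levels in the 2 washed libraries are therefore given separately.

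**Figure D1:**
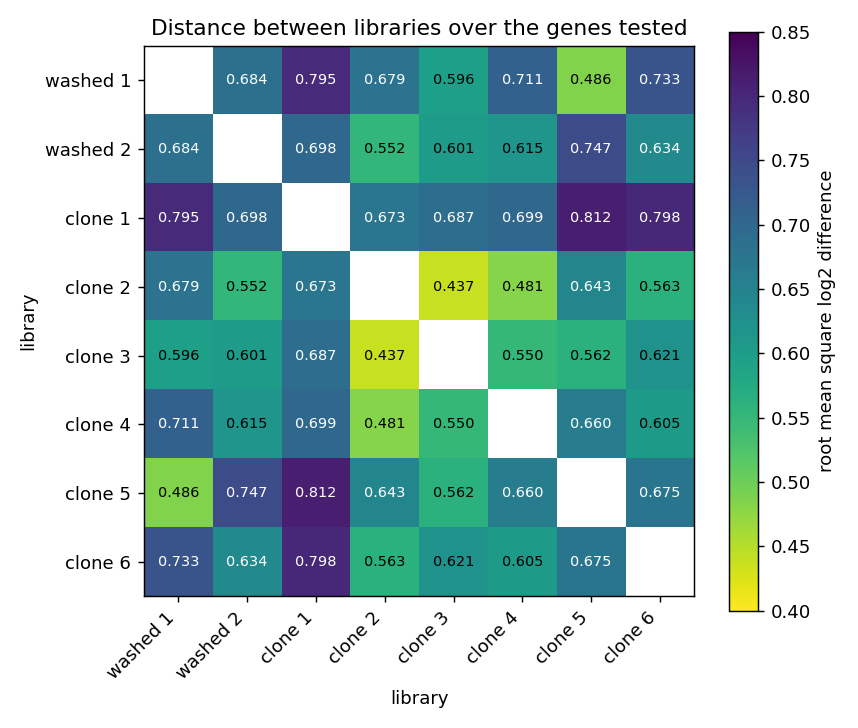
Distance between each pair of the 8 libraries, as the root mean square log2 difference over the genes tested; rows and columns are libraries and the colour scale is the distance. The pair of washed libraries differs by 0.684, more than washed 1 differs from clone 5 (0.486), and clone 1 is far from every other library.

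Some of the genes with the widest gap between the washed libraries varied as widely among the clones. CLSTN2, a synaptic adhesion protein, was at 1.24 CPM in washed 1 and 42.4 in washed 2. In clones 1 to 6 it was at 2.71, 13.5, 3.87, 66.9, 0.411 and 13.4. SULF1, which trims heparan sulphate chains, was at 9.78 and 103 in the washed libraries and at 10.3, 41.9, 9.23, 48.3, 6.7 and 46.5 in the clones. For both genes clones 1, 3 and 5 lay near washed 1, and clones 2, 4 and 6 between the washed libraries or above them. SAA1, an acute phase protein, was at 41.5 and 335 in the washed libraries and at 431, 281, 41.5, 330, 35.1 and 447 in the clones. Here clones 3 and 5 matched washed 1 and the other 4 lay near washed 2 or above it. In the opposite direction, KRT7, a keratin of simple epithelia, was at 1070 and 169 CPM in the washed libraries and 303 to 796 in the clones. TGFBI, a matrix protein induced by transforming growth factor beta, was at 2330 and 454, against 444 to 2110 in the clones. These 5 genes were chosen after their values were seen, and the groups overlap for each of them.

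Over all genes, 1450 (10.2% of those tested) differed more than 2-fold between the washed libraries, 336 higher in washed 1 and 1114 higher in washed 2. Clone 5 was nearer to washed 1 at 79.2% of these genes and clone 3 at 50.1%. The other 4 clones were nearer to washed 1 at 35.1% to 37.6%. At 225 of the genes all 6 clones lay between the washed libraries. The median SD of log2 CPM among clones was 0.235 over all genes tested, and the median absolute difference of the washed libraries was 0.333.

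With 2 washed libraries that differ this much, edgeR's quasi-likelihood test called 1 of 14188 genes at an adjusted p under 0.05 (0.00705%), NARR, which rose, and none that fell. At an unadjusted p under 0.05 there were 928 genes (6.54%), 472 higher in the clones (3.33%) and 456 lower (3.21%). The libraries of the groups did not overlap at 1250 genes (8.81%), 560 with all clones above both washed libraries (3.95%) and 690 with all clones below (4.86%). DESeq2, run as an alternative on the same counts, called 58 of 14344 genes (0.404%), 43 higher (0.3%) and 15 lower (0.105%). Apart from NARR, no gene named below passed the edgeR test over the 8 libraries, and each is given by its values.

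The single called gene is a nested locus. NARR (NM_001256281) lies at chr17:27043012-27044908 of hg19 on the minus strand, inside RAB34, which is transcribed from the same strand and encodes a small GTPase. NARR had 0 reads in both washed libraries. In clones 1 to 6 it had 645, 538, 313, 818, 337 and 300 reads, a mean of 25.9 ± 9.42 CPM (SD, n = 6). Against a floor of 3 reads over both washed libraries the mean of the clones was at least 492-fold higher, and the lowest clone at least 333-fold (edgeR adjusted p of the group difference = 0.00448). It did not pass without washed 2 (edgeR adjusted p = 0.0919), with all 20 libraries fitted together (0.494) or in limma voom (0.229). NARR also had 0 reads in replicate 2 of Control_6W and in replicate 2 of Ni_6W, so zeros occurred in 4 of the 20 libraries and in unexposed cells. RAB34 itself was at 173 ± 9.01 CPM in the washed libraries (n = 2) and 168 ± 56.7 in the clones (n = 6). How reads in the overlap of the 2 genes were assigned is not given in the sources used here. MIR1181, a microRNA locus inside CDC37, showed the same pattern, with 0 reads in both washed libraries and 24 to 91 in the clones (edgeR adjusted p = 0.0519), and had 0 reads in 7 of the 20 libraries. CDC37 was at 392 ± 93 and 394 ± 13.4 CPM.

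Several of the genes with the smallest p-values share exons with a read-through locus that was set aside. HNRNPH2 (chrX:100663122-100669128), an RNA-binding splicing regulator, was at 84.4 and 85.4 CPM in the washed libraries. In clones 1 to 6 it was at 34, 46.9, 27.7, 30.3, 40.8 and 41. All clones lay under both washed libraries, a log2 fold change of -1.21 ± 0.18 (SE; edgeR adjusted p = 0.247). The read-through locus RPL36A-HNRNPH2 moved the other way, from 33.7 ± 3.99 CPM (n = 2) to 79.7 ± 10.7 (n = 6). The sum of both was 119 ± 3.28 in the washed libraries and 116 ± 9.47 in the clones. The groups overlapped in this sum, so the difference at HNRNPH2 was not seen over both loci together. EEF1E1, a scaffold protein of the tRNA synthetase complex, was at 26.5 ± 2.8 CPM in the washed libraries and 40.9 ± 1.61 in the clones (log2 fold change 0.63 ± 0.12, SE; edgeR adjusted p = 0.615). Its read-through partner EEF1E1-BLOC1S5 had 234 and 82 reads in the washed libraries and 0 in all 6 clones. The sum was 31.8 ± 0.045 against 40.9 ± 1.61, so the higher level in all clones held over both loci. CPT1B, which carries fatty acids into mitochondria, was at 21.8 ± 3.05 and 11 ± 2.59 CPM. Together with CHKB-CPT1B it was at 36.1 ± 1.46 and 22.3 ± 4.55, and the groups did not overlap in the sum either.

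The immediate early and ERK feedback genes stood higher in the clones as a group. Of 28 measured members, 26 had a positive log2 fold change, and the 2 others were DUSP2 and DUSP10. At an unadjusted p under 0.05 there were 18 members, all higher in the clones, where 3.33% of all genes were. At 17 members all 6 clones lay above both washed libraries, where 3.95% of all genes did. The median log2 fold change was 1.19, against -0.005 over all genes tested. edgeR called no member after adjustment over all genes. DESeq2 called 9 (0.3% of all genes were called as higher), namely FOS, FOSB, JUNB, EGR1, EGR3, IER2, DUSP6, ETV5 and PHLDA1.

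**Figure D2:**
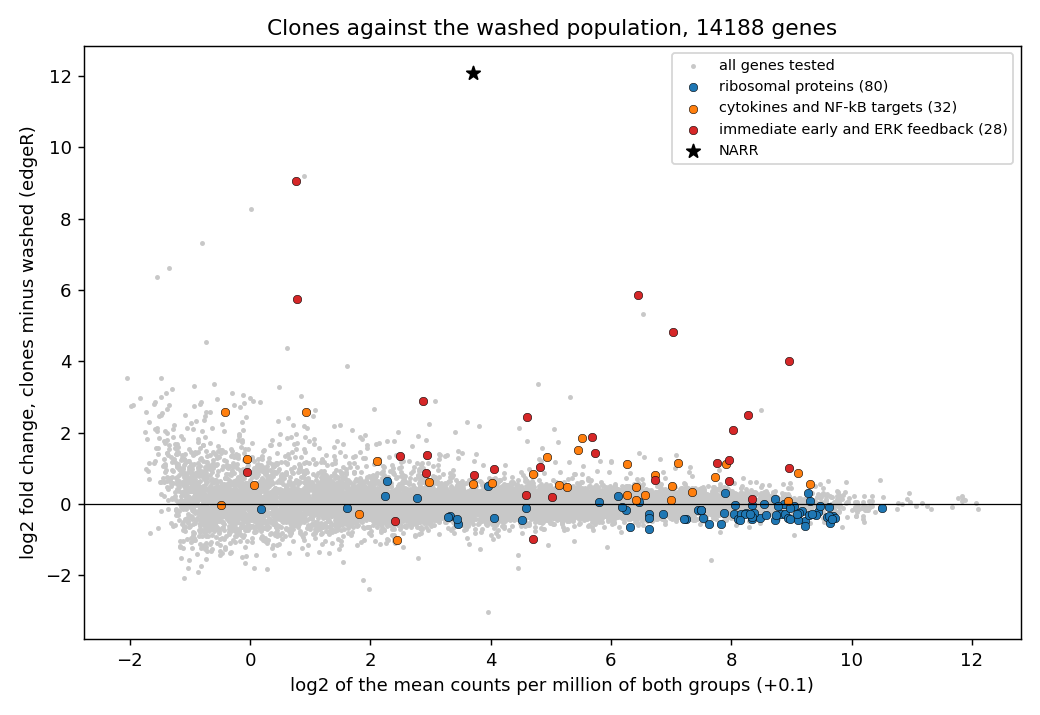
Log2 fold change of clones over the washed population for each of the 14188 genes tested (vertical axis, edgeR) against the log2 mean level in CPM (horizontal axis); grey points are all genes and coloured points the members of 3 lists. The immediate early and ERK feedback genes (red) lie above 0 for 26 of 28 members, and most ribosomal protein genes (blue) lie a little under 0, 68 of 80.

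Among the transcription factors, EGR1 (chr5:137801182-137805004), a zinc finger factor, was at 51.2 and 64.2 CPM in the washed libraries. In clones 1 to 6 it was at 200, 657, 383, 1850, 786 and 1750. The log2 fold change was 4.02 ± 0.94 (SE; edgeR adjusted p = 0.698, DESeq2 adjusted p = 0.000735). Clones 4 and 6 were highest and clone 1 lowest, and no clone came near the washed libraries. FOS (chr14:75745482-75748937), a subunit of the AP-1 complex, was at 8.48 and 9.48 CPM in the washed libraries. The clones were at 25, 161, 85.8, 665, 170 and 412, with the same order of the highest and the lowest. The log2 fold change was 4.82 ± 1.28 (SE; edgeR adjusted p = 0.717, DESeq2 adjusted p = 0.0022). FOSB, a second AP-1 subunit, repeated the pattern at 3.5 and 2.32 CPM against 7.9, 106, 49.8, 521, 104 and 242. EGR3 had 0 reads in both washed libraries and 0.28 to 8.32 CPM in the clones, on average at least 60.3-fold above a floor of 3 reads over both washed libraries. The more abundant factors differed less. JUNB was at 137 and 133 CPM in the washed libraries and 196 to 422 in the clones (log2 fold change 1.15 ± 0.3, SE), and IER2 at 89 and 111 against 223 to 727 (2.09 ± 0.52). JUN, at 399 and 264 CPM, lay under all clones (407 to 1060), as did JUND, at 190 and 199 against 213 to 431. ATF3, a stress-induced factor, overlapped, with 26.2 CPM in clone 3 against 26.4 in washed 2, and 198 in clone 4. FOSL1 overlapped more widely, at 129 and 33.9 CPM in the washed libraries and 85.9 to 214 in the clones.

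**Figure D3:**
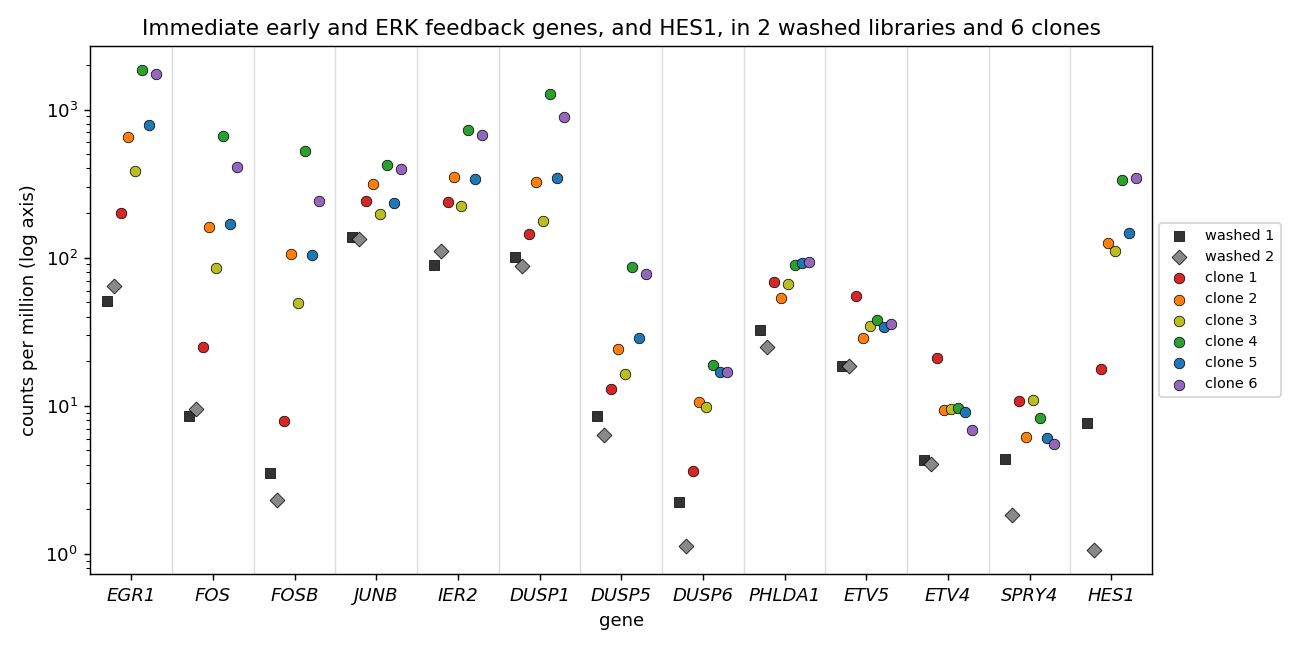
CPM on a log axis of 12 immediate early and ERK feedback genes and of HES1 in each of the 8 libraries; squares and diamonds are the washed libraries, circles the clones. The 12 list members shown are all from the 17 of 28 at which every clone lies above both washed libraries. HES1 was chosen after its values were seen, so the separation of the groups follows from the choice of genes. Clones 4 and 6 are highest for EGR1, FOS, FOSB, DUSP1 and HES1, while clone 1 is lowest of the clones for those 5 genes but highest for ETV4 and ETV5.

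Serum response factor binds the CArG box, 10 bases that start with CC, hold 6 bases of A or T and end with GG. EGR1 was the 1 member of the immediate early and ERK feedback list for which such a box was found, so its upstream sequence is shown. It lies at chr5:138465354-138465425 on the plus strand of GRCh38.p14, from RefSeq, a build other than the hg19 of the deposited files, with the 2 CArG boxes in capitals.
EGR1: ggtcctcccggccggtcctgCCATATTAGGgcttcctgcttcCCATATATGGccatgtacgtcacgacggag
A CArG box (palindromic in form, so the same search covers both strands) was present in the 250 bases before the start in 312 of 27305 promoters (1.14%). Among the immediate early and ERK feedback list it was found for 1 of the 21 members with a promoter in the table (4.76%), and 7 members had no entry. The search was chosen after the levels were seen and describes this window only.

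Of the 15 feedback inhibitors of ERK and other ERK targets on the list, 8 lay above both washed libraries in all 6 clones. The other 7 overlapped: DUSP2, DUSP4, DUSP10, SPRY1, SPRY2, SPRED1 and SPRED2. PHLDA1 (chr12:76419228-76425556), a pleckstrin homology protein induced by growth factors, was at 32.7 and 25 CPM in the washed libraries. In clones 1 to 6 it was at 68.1, 53.2, 66.8, 89.6, 92.4 and 94. The log2 fold change was 1.42 ± 0.24 (SE; edgeR adjusted p = 0.479, DESeq2 adjusted p = 1.85e-05), and every clone was above both washed libraries. DUSP6, the cytoplasmic phosphatase that inactivates ERK, was at 2.26 and 1.14 CPM against 3.65, 10.6, 9.76, 18.9, 16.9 and 16.9 (log2 fold change 2.89 ± 0.63, SE; DESeq2 adjusted p = 3.16e-05). ETV5, an ETS factor downstream of fibroblast growth factor signalling, was at 18.5 in both washed libraries and at 55.4, 28.6, 34.6, 37.8, 34.3 and 35.6 in the clones (log2 fold change 1.03 ± 0.23, SE). Its relative ETV4 was at 4.3 and 4.07 CPM against 6.91 to 20.9. For both ETS factors clone 1 was highest, the reverse of its place for FOS and EGR1. The nuclear phosphatases DUSP1 and DUSP5 followed FOS: DUSP1 was at 101 and 87.6 CPM in the washed libraries, 145 in clone 1 and 1280 in clone 4. DUSP5 was at 8.54 and 6.39 CPM, 13 in clone 1 and 85.9 in clone 4. SPRY4, a Sprouty inhibitor of receptor signalling, was at 4.36 and 1.83 CPM against 5.51 to 11. DUSP2 and DUSP10 had negative log2 fold changes. DUSP2 was at 63.5 CPM in washed 1, 5.37 in washed 2 and 5.65 to 37.7 in the clones, and DUSP10 at 8.11 and 4.11 against 2.85 to 5.59.

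3 genes outside the list, chosen after their values were seen, showed a like pattern. HES1 (chr3:193853932-193856401), a Notch target that represses transcription, was at 7.61 and 1.06 CPM in the washed libraries. The clones were at 17.8, 126, 111, 335, 146 and 346. The log2 fold change was 5.34 ± 1.3 (SE; edgeR adjusted p = 0.717, DESeq2 adjusted p = 0.000787). CTGF, a target of YAP and serum response factor, was at 114 and 83.7 CPM in the washed libraries, 114 in clone 1 and 284 to 1240 in the other clones. SOX9, a factor of progenitor cells in several tissues, was at 2.2 and 1.75 CPM against 12.2, 7.32, 20.5, 28.5, 14.5 and 4.92 (log2 fold change 2.88 ± 0.68, SE; DESeq2 adjusted p = 6.85e-05). SOX9 differed in which clones were highest: clone 6, among the highest for FOS, was the lowest of the clones here.

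Levels in the other 12 libraries place the 2 groups, on the CPM scale of all 20 libraries. EGR1 was at 373 to 951 CPM in the 2 unexposed Control_6W libraries, 30.4 to 310 in the 4 Control_3D libraries, 57.3 and 422 in the 2 Ni_3D libraries, 32.1 to 54.7 in Ni_6W, 26.2 to 37.6 in Ni_3D+14D and 50.9 to 62.1 in the washed population, against 198 to 1820 in the clones. IER2 was at 363 to 368 in Control_6W and at most 202 in the other uncloned libraries. FOS was at 22.8 to 80.3 in Control_6W and at most 22 in the other 12 uncloned libraries, the washed ones included. FOS, IER2 and EGR1 in the clones thus overlapped the 6-week controls, and those controls lay above the washed population. HES1 was at most 19.9 CPM in the other 12 libraries, a level that 5 of the 6 clones exceeded. It overlapped the 6-week controls as well, at 15.7 and 19.9 CPM there and 17.7 in the lowest clone. Those controls again lay above the washed population, at 1.02 and 7.57. How long before lysis the cells were last fed, and their density, are not given in the labels, and the part of either in these levels was not tested.

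The list did not depend on a single library in its direction. With washed 1 left out its median log2 fold change was 1.62 and 15 members were at an unadjusted p under 0.05 and higher. With washed 2 left out the median was 1.18, with 10 such members higher and 2 lower. Without any 1 of the clones the median was 1.06 to 1.25. The median difference of the 28 genes from the mean of the washed libraries was 0.07 and -0.07 in the washed libraries, 0.72 in clone 1, 0.94 in clone 2, 0.92 in clone 3, 1.64 in clone 4, 1.05 in clone 5 and 1.66 in clone 6.

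**Figure D4:**
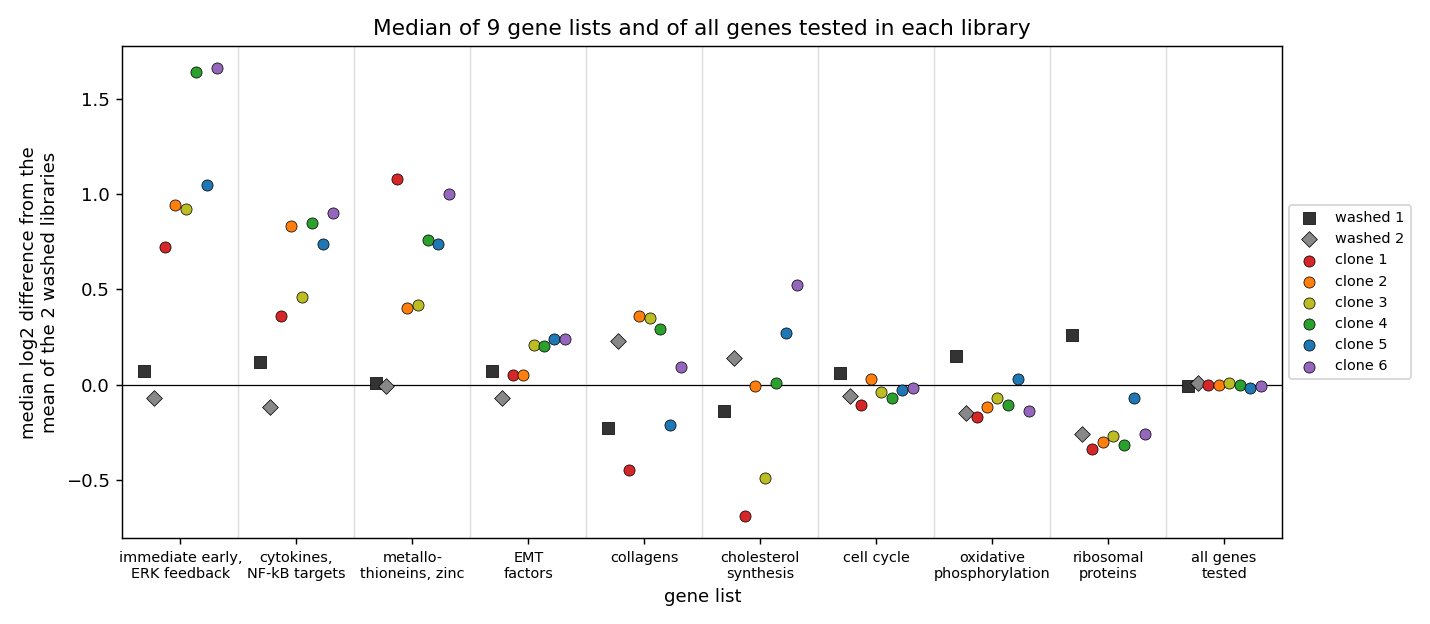
Median log2 difference from the mean of the 2 washed libraries, for the members of 9 gene lists and for all genes tested, in each library (squares and diamonds, washed; circles, clones). The immediate early list separates the clones (0.72 to 1.66) from the washed libraries (0.07 and -0.07), while for ribosomal proteins washed 2 (-0.26) lies among the clones (-0.34 to -0.07).

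Of the 38 gene lists, 4 had a median above both washed libraries in all 6 clones: the immediate early list, cytokines and NF-kB targets, metallothioneins with zinc transport, and matrix proteases. The matrix proteases (21 genes) did so by little, with medians of 0.12 to 0.5 in the clones and -0.11 and 0.11 in the washed libraries. None had a median under both washed libraries in all 6 clones. Cytokine and NF-kB genes are a second group induced by stress and inflammatory signals. Of 32 measured, 11 were higher (3.33% of all genes were) and 1 lower (3.21%) at an unadjusted p under 0.05, and 7 lay above both washed libraries in all clones (3.95%). The number higher ran from 5 to 14 over the alternatives. edgeR called none and DESeq2 called 4 (0.3% of all genes were called as higher), and the median log2 fold change was 0.58. IL1B was at 24 and 11.1 CPM in the washed libraries and 39, 31.6, 32.3, 53.9, 59.1 and 45.8 in the clones (log2 fold change 1.31 ± 0.34, SE; DESeq2 adjusted p = 0.0164). CXCL8, a neutrophil chemokine, was at 175 and 129 CPM against 219 to 451 (1.11 ± 0.31; DESeq2 adjusted p = 0.0419), and CXCL2, of the same family, at 25.3 and 20 against 34.8 to 101 (1.5 ± 0.42). CSF3, a granulocyte growth factor, was low throughout, at 0.619 and 0.407 against 1.06 to 6.1. All 6 clones were above both washed libraries for these 4 genes. IL6 was at 15.4 and 24.3 CPM against 28.7 to 167, highest in clones 4 and 6 as FOS was. TNFAIP2 was at 403 and 382 against 444 to 991, and NFKBIZ at 76.1 and 79 against 92.7 to 208. These 7 are the members without overlap among those higher. TNFSF10, the death ligand TRAIL, was the member lower in all clones, at 5.08 and 9.23 CPM against 2.98 to 4.44. Of the 32 members 29 had a positive log2 fold change, but several differed little and overlapped. The log2 fold change was 0.1 for NFKBIA, 0.12 for NFKB1, 0.24 for TNFAIP3 and 0.07 for SOD2. For CXCL10 and CCL5 it was -0.04 and -0.28.

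Metallothioneins bind zinc and other metals and are induced by metal ions. The 5 measured members of the list, with the zinc exporter SLC30A1, all had positive log2 fold changes (median 0.68), 3 of them at an unadjusted p under 0.05 (3.33% of all genes were), and none was called by either tool. That number was 0 without washed 1 or with all 20 libraries fitted together, and 1 without washed 2. MT2A was at 152 and 150 CPM in the washed libraries and at 335, 243, 137, 385, 317 and 335 in the clones, so that clone 3 alone lay under the washed libraries. MT1E was at 16.7 and 16.8 CPM against 17.1 to 35.4, with clone 6 close to the washed level. MT1X overlapped, at 5.85 and 3.62 against 4.32 to 9.32. MT2A in the clones, at 135 to 378 CPM on the scale of all 20 libraries, overlapped the Control_3D libraries, at 142 to 378. The Control_6W libraries were at 203 and 739, and the Ni_6W libraries at 193 and 289.

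Ribosomal protein genes were lower in the clones against washed 1 and not against washed 2. Of 80 measured, 68 had a negative log2 fold change (median -0.28). At an unadjusted p under 0.05, 23 were lower and 2 higher (RPLP2 and RPL22L1), where 3.21% of all genes were lower and 3.33% higher. The medians of the washed libraries were 0.26 and -0.26, and those of the clones -0.34 to -0.07. Washed 2 was thus at the level of the clones. Without washed 1 the median was 0.01 and without washed 2 it was -0.51. RPS27A was at 128 and 66.3 CPM in the washed libraries and 55.9 to 75.2 in the clones, and RPSA at 154 and 93.2 against 48.8 to 93.6. RPL26 was the 1 member that DESeq2 called (0.105% of all genes were called as lower). It was at 276 and 267 CPM against 195, 183, 176, 209, 177 and 162 (log2 fold change -0.56 ± 0.12, SE; edgeR adjusted p = 0.624, DESeq2 adjusted p = 0.0105). EEF1A1, the elongation factor that brings tRNA to the ribosome, was at 327 and 241 CPM against 139 to 204 (-0.78 ± 0.16). Both genes have many near-identical processed copies in the genome, so their counts depend on how reads with several matches were treated, which is not given in the sources used here. The oxidative phosphorylation list was nearer to 0, with 57 of 84 members negative and a median of -0.11. Its members named by size were NDUFC1, at 33.5 and 35.6 CPM against 47.2 to 58.4, and UQCRH, at 90.1 and 65.8 against 38.1 to 61.6.

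The remaining genes of smallest p without overlap covered several functions. Higher in all clones, SLC12A7, a potassium chloride cotransporter, was at 10.2 and 15.1 CPM in the washed libraries and 81.1, 71.1, 33.8, 58.4, 25.2 and 53.1 in the clones (log2 fold change 2.09 ± 0.45, SE; edgeR adjusted p = 0.632, DESeq2 adjusted p = 6.41e-05). Its level spread over the series as well, from 0.221 to 0.42 CPM in Control_6W to 59.7 to 92.9 in Ni_3D. LYNX1, a GPI-anchored modulator of acetylcholine receptors, was at 5.2 and 4.39 CPM against 8.2 to 12.7. ZNF703, a transcriptional cofactor, was at 19.7 and 13.5 against 27.4 to 40.4. ZFP36L2, which destabilises AU-rich messages, was at 64.2 and 47.7 against 78.4 to 120, MIDN at 79.3 and 60.1 against 97.6 to 127, and PRR7 at 16.1 and 17.7 against 25.1 to 38.2. NUDT4P2 was at 0.712 and 0 CPM against 3.56 to 8.52, while NUDT4P1, which overlaps it on the same strand, was at 8.23 and 4.6 against 0 to 3.1. The sum of both was 6.77 ± 3.07 CPM in the washed libraries and 6.78 ± 0.913 in the clones, so the difference at NUDT4P2 was not seen over both loci. The log2 fold changes of ZNF703, ZFP36L2, MIDN and PRR7 lay between 0.7 and 0.98.

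Among those lower in all clones, CBX7, a chromobox subunit of Polycomb repressive complex 1, was at 58.7 and 70.6 CPM in the washed libraries and 32.9, 41, 38.3, 38, 40.7 and 41.8 in the clones (log2 fold change -0.74 ± 0.13, SE; edgeR adjusted p = 0.479, DESeq2 adjusted p = 0.000876). CBX7 was at 32.4 to 46 CPM in the 6 control libraries of the series and 48.9 to 87.1 in the uncloned libraries that had met nickel, so the clones lay within the range of the controls. EZH2, the methyltransferase of Polycomb repressive complex 2, was at 100 and 97.5 CPM against 63.8 to 83.6 (-0.46 ± 0.12; edgeR adjusted p = 0.717). KCTD7 was at 44.4 and 50.8 CPM against 26.6 to 34.1, ZNF767P at 25.9 and 19 against 10.5 to 13.9, and FAM219B at 64.7 and 54.5 against 35.5 to 42.7. CLK1, a kinase of splicing factors, was at 29.8 and 36.8 against 16.1 to 24, and PNISR, a serine- and arginine-rich splicing protein, at 104 and 118 against 65.5 to 84.7. VAMP1, a vesicle fusion protein, was at 30.1 and 41.8 against 19 to 24.5, and HILPDA, a hypoxia-inducible lipid droplet protein, at 20.4 and 24.4 against 12.9 to 16.1. Every clone of KCTD7, ZNF767P and HILPDA lay within a narrow band under both washed libraries. These genes were selected for a small p without overlap, which favours a small spread among clones, so the band is not a separate result. TXNIP, which binds thioredoxin and limits glucose uptake, was at 127 CPM in washed 1, 479 in washed 2 and 69.7 to 133 in the clones. Over the 8 libraries it was called by DESeq2 (log2 fold change -1.57, adjusted p = 0.0126) and not by edgeR (-1.59 ± 0.37, SE; adjusted p = 0.698). The edgeR test was passed without washed 1 (-2.25, adjusted p = 0.0395), and washed 1 lay within the range of the clones. In Ni_6W it was at 663 to 2620 CPM.

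For the EMT, neither edgeR nor DESeq2 called any of the 10 measured EMT factors, nor FN1, VIM, CDH2, CDH1 or EPCAM. ZEB1 was at 10.1 and 16.9 CPM in the washed libraries and 13.8, 7.93, 8.16, 9.74, 9.11 and 14.8 in the clones (log2 fold change -0.35 ± 0.29, SE; edgeR adjusted p = 0.878). The groups overlapped, and without washed 2 the log2 fold change was 0.07. VIM and CDH2, a filament protein and a cadherin of mesenchymal cells, had log2 fold changes of 0.04 ± 0.31 and -0.07 ± 0.15. CDH1 was under 1 CPM in all 8 libraries of the comparison. EPCAM, an epithelial adhesion molecule, was at 1.64 and 1.87 CPM against 1.73 to 5.47. The repressor SNAI1 was above both washed libraries in all 6 clones and SNAI2 in 5. SNAI1 was at 2.1 and 1.87 CPM against 2.34 to 16.1, and SNAI2 at 3.16 and 1.1 against 1.36 in clone 1 and 6.15 to 12.3 in the others (log2 fold change 2.01 ± 0.76, SE; edgeR adjusted p = 0.722, DESeq2 adjusted p = 0.137). Over the 10 measured EMT factors the median log2 fold change was 0.07. Of 37 epithelial genes, 19 had a positive and 18 a negative log2 fold change (median 0.006). DESeq2 called 1 as higher (0.3% of all genes were), LAMB3, a laminin chain of the basement membrane. LAMB3 was at 36.5 and 41.4 CPM against 64.5 to 136 (1.19 ± 0.27; DESeq2 adjusted p = 0.00535). It was the 1 member above both washed libraries in all clones (3.95% of all genes were). CLDN7 was the 1 below both (4.86%), at 5.39 and 7.36 CPM against 3.16 to 5.24.

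Several matrix genes varied widely among the clones. FN1, fibronectin, was at 595 and 635 CPM in the washed libraries and 216, 1210, 2120, 678, 618 and 870 in the clones (log2 fold change 0.63 ± 0.66, SE; edgeR adjusted p = 0.908). COL1A2, a chain of type I collagen, was at 65.3 and 27.7 CPM in the washed libraries and 0.28, 10.3, 20.8, 12.8, 25.6 and 99.5 in the clones. COL5A3 was at 34 and 3.01 CPM against 2.8, 41.3, 105, 2.73, 19.1 and 2.87. COL1A1, the most abundant gene of clone 3, was at 4520 and 2520 CPM and at 2380 to 6940 in the clones. Clone 1 was lowest for FN1 and COL1A2 and clone 3 highest for FN1, COL5A3 and COL1A1. COL1A2, COL5A3, FOSB, SGK1, SAA1 and FOS had the largest SD of log2 CPM among clones of the genes at 20 CPM or more. SGK1, a kinase induced by serum and glucocorticoid, was at 5.91 and 3.86 CPM and at 5.79, 28.3, 11.4, 116, 34.6 and 107, high in clones 4 and 6 as the immediate early genes were. Of 28 measured collagen genes, 1 lay above both washed libraries in all clones (3.95% of all genes did) and 1 below (4.86%). These were COL16A1, at 3.93 and 4.6 CPM against 5.47 to 11.1, and COL5A2, at 7.27 and 12.9 against 1.68 to 5.88.

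Clones also differed from each other over whole stretches of chromosomes. Over 10902 genes at 5 CPM or more, each library's log2 deviation from the median of the 8 libraries was summarised in 109 windows of 30 Mb, a choice made after the data were seen. Clone 1 had a median under -0.2 in 23 windows, against 6 in washed 1, 0 in washed 2 and 2 to 5 in the other clones. Its median was -0.471 over the 281 genes of chromosome 22, and -0.61 over the 114 genes between 210 and 240 Mb of chromosome 1. Clone 6 had a median of 0.553 over the 42 genes in the first 30 Mb of chromosome 5 and -0.407 over the 105 genes in the first 30 Mb of chromosome 7. Clone 2 had -0.435 over the 48 genes in the first 30 Mb of chromosome 9, and clone 3 had -0.2 over the 538 genes of chromosome 6. Each of these stretches was near 0 in both washed libraries, within 0.1. On chromosome 13 (182 genes) the libraries fell apart in another way, with medians of -0.307 in washed 1, -0.363 in clone 1 and -0.25 in clone 5, and 0.031 to 0.196 in washed 2 and the other clones. Clones 1 and 5 were both low there with washed 1, although over all genes clone 5 was the nearest clone to washed 1 (0.486) and clone 1 the farthest (0.795). CBX7 lies on chromosome 22, where clone 1 was low, and SLC12A7 on the short arm of chromosome 5, where clone 6 was high. Clone 1 had the lowest CBX7 of the clones, and clone 6 was not the highest for SLC12A7. DNA was not measured in the files used here, and the part of copy number in these medians was not tested.

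**Figure D5:**
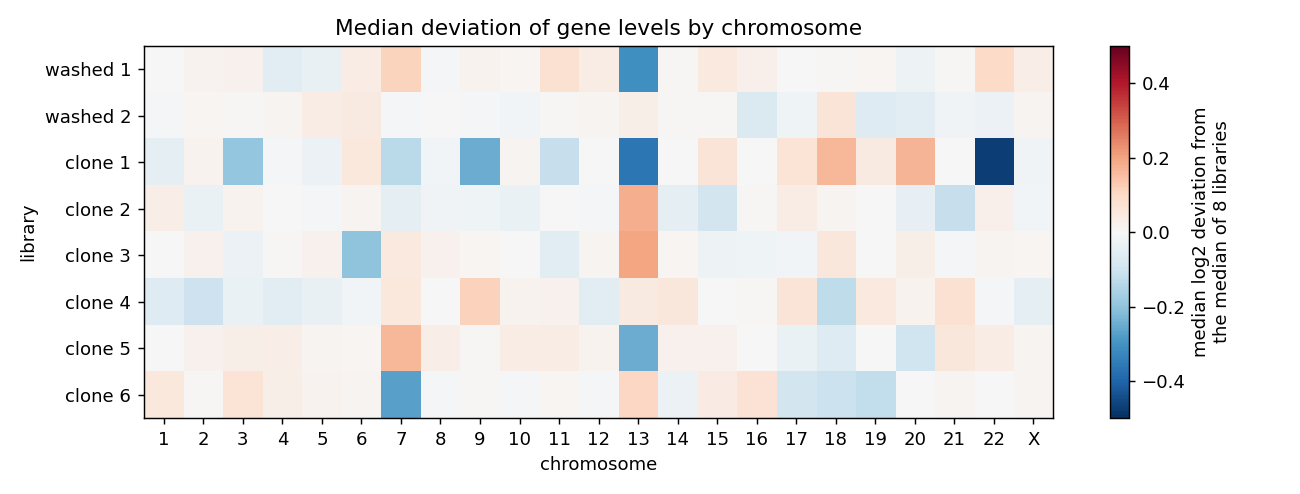
Median log2 deviation of gene levels from the median of the 8 libraries, by chromosome (columns) and library (rows); blue is lower and red higher. Clone 1 is low on chromosomes 22 (-0.471) and 13 (-0.363), clone 6 on chromosome 7 (-0.27), and washed 1 shares its low chromosome 13 (-0.307) with clones 1 and 5.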

How the data were processed

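Total RNA was sequenced from TruSeq libraries, per the labels. A file for each library, as deposited by the authors, lists raw counts of reads by RefSeq gene and, per the file headers, an RPKM value for each. Counts were used for all results; the RPKM values deposited by the authors were read but print no result. The submitters' processing notes list GRCh37 and hg19 as builds and STAR 2.4, DESeq2 and DESeq as tools. What each tool did, the counting rule and the strand are not stated there. The authors' comparison tables were not used.

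Libraries were joined by RefSeq identifier over 25411 genes, since 28 symbols differed between files, and 121 read-through loci were set aside. The 8 libraries were fitted in edgeR 4.0.16 under R 4.3.3 (TMM, filterByExpr at 10 reads and 15 in total, robust quasi-likelihood test), with Benjamini-Hochberg adjustment over 14188 genes and a threshold of 0.05. The coefficient of variation between replicates was 24.6%. A floor is 3 reads over a group. Median differences by library used log2 CPM with a prior count of 2. DESeq2 1.42.0 and limma 3.58.1 (voom), other scalings and filters, all 20 libraries, a replicate block, read-through loci kept and each library left out were alternatives; leaving out overlapping loci and scaling without immediate early and ribosomal protein genes were added after the data were seen. The fit was tested on simulated counts.

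Members, gene lists and rules were chosen with earlier results of these data known. Named genes were those called, then those of smallest p without overlap and with at least 5 CPM in 1 group (12 each way), the EMT genes, members of each list by size, and the 6 most variable among clones at 20 CPM or more. CPM of the other 12 libraries come from 1 scaling of all 20. Promoter sequences are from RefSeq (GRCh38.p14).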

Additional observations from a re-analysis of the deposited data

Results flagged for a closer look

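Among 89 named genes, 5 had 1 clone far from the other 5, by the gap to its nearest neighbour over the range of the 6 clones in log2 CPM (above 0.625). Chance gives such a gap in about 1 of 20 groups, so 5 of 89 is close to what chance gives. ETV4 was at 20.9 CPM in clone 1 and 6.91 to 9.64 in the others. SNAI2 was at 1.36 CPM in clone 1 and 6.15 to 12.3 in the others. UQCRH was at 38.1 CPM in clone 4 and 53.6 to 61.6 in the others. RPS27A was at 75.2 CPM in clone 5 and 55.9 to 61.3 in the others. GSTM3, a glutathione transferase, was at 28.1 CPM in clone 3 and 38.3 to 42.8 in the others.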

How the results depend on the processing

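The genes called were nested or overlapping loci in most alternatives. NARR was called alone in the fit reported, without robust estimation, and with scaling that left out immediate early and ribosomal protein genes. MIR1181 joined it for 2 genes with RLE size factors, with upper quartile scaling, without a filter and with the stricter filter. With read-through loci kept there were 4, and with DESeq2 58. There were 0 with all 20 libraries (626 at an unadjusted p under 0.05), 0 with limma voom (1021 at an unadjusted p under 0.05) and 0 when loci overlapping another on the same strand were left out (794 at an unadjusted p under 0.05). Leaving out 1 library gave 0 genes (without washed 2, where 1448 were at an unadjusted p under 0.05) to 3 (without washed 1: NARR, PCNA-AS1 and TXNIP). The clone numbers name colonies and were not taken to pair them with the washed libraries. Same-numbered washed and clone libraries deviated together at a correlation over genes of -0.143 and 0.262. The 2 washed libraries, each set against their shared mean, deviate as mirror images, so these correlations cannot decide whether samples are paired. The replicate block gave 3 genes, NARR, SLC12A7 and FAM101A. Clones 3 to 6 share their number with no washed library, so its fold changes rest on clones 1 and 2 against washed 1 and 2. FAM101A had 0 reads in 5 of the 6 clones, while its sum with ZNF664-FAM101A was 41.3 ± 22.2 CPM in the washed libraries and 41.5 ± 20.8 in the clones.

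Of 89 named genes, 74 kept their sign in every alternative that tested them. Over the fits that leave out 1 library, the ribosomal protein median ran from -0.51 to 0.01, and log2 fold changes from -1.86 to 1.71 for DUSP2, -0.9 to 0.08 for DUSP10, -0.68 to 0.07 for ZEB1, -0.73 to 0.09 for CDH1, -0.36 to 0.58 for VIM, -0.19 to 0.06 for CDH2, -1.74 to 0.02 for COL1A2, -0.43 to 3.26 for COL5A3, -0.22 to 0.62 for COL1A1, -0.36 to 2.65 for SAA1, -1.92 to 1.47 for SULF1, -1.05 to 1.6 for KRT7, -1.27 to 1.09 for TGFBI and -1.68 to 3.75 for CLSTN2. In each, leaving out 1 of the washed libraries was enough to turn the sign; leaving out clone 3 also did so for COL5A3 and COL1A1, and leaving out clone 5 for VIM. The replicate block sets only clones 1 and 2 against the washed libraries. Under it the log2 fold change was -0.26 for FN1, -0.3 for VIM, -0.28 for COL1A1 and 0.05 for KRT7. With limma voom it was -0.06 for COL5A3, 0.23 for KRT7 and 0.03 for CLSTN2. The cause was not tested. The immediate early median stayed between 1.05 and 1.62 and the cytokine median between 0.57 and 0.75 over 20 alternatives.

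With 2 washed libraries, 1 of them decides any value where they differ, and precision rests on their number rather than on depth. A clone is 1 library with no replicate.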

Other observations

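Gene groups that varied among clones without separating from the washed libraries are given as values. The 25 cholesterol synthesis genes had medians, relative to the mean of the washed libraries, of -0.69 in clone 1, -0.01 in clone 2, -0.49 in clone 3, 0.01 in clone 4, 0.27 in clone 5 and 0.52 in clone 6, with -0.14 and 0.14 in the washed libraries. The 28 collagen genes ran from -0.45 in clone 1 to 0.36 in clone 2. H19, an imprinted long noncoding RNA, was at 5.14 and 11.3 CPM in the washed libraries and at 56.3, 49, 29.1, 67.7, 3.88 and 8.2 in the clones, so clones 1 to 4 were high and clones 5 and 6 at the washed level. Of 35 clustered protocadherin genes, 26 had a positive log2 fold change (median 0.31), while the washed libraries themselves stood at -0.3 and 0.3.

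Single genes of other lists were also without overlap, as 8.81% of all genes tested were. GADD45A, a stress-induced inhibitor of cell cycle progression, was at 61 and 45.6 CPM in the washed libraries and 88 to 234 in the clones (log2 fold change 1.32 ± 0.39, SE; DESeq2 adjusted p = 0.0374). CCND1, cyclin D1, was at 27 and 4.64 CPM against 28.1 to 105. Its log2 fold change ran from 0.98 to 3.52 over the fits that leave out 1 library. It was the 1 of 38 cell cycle genes above both washed libraries in all clones (3.95% of all genes were). In that list 5 lay below both (4.86%), and 27 had a negative log2 fold change (median -0.041). HBEGF, a ligand of the epidermal growth factor receptor, was at 33.4 and 26.1 CPM against 34.3 to 91.1. HDAC1, a histone deacetylase, was at 264 and 227 CPM against 177 to 212.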
